A study of Mus musculus with 9 samples.

Results

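The variable segments of the T cell receptor were followed in RNA sequencing of the omentum, a fatty fold of the abdominal lining on which tumours of the cavity grow. Members were chosen by their measured counts: the Trav segments (alpha chain) and Trbv segments (beta chain) whose counts summed to 10 or more over all 9 libraries, which gave 48 of the 163 Trav and Trbv entries of the count table, 29 of 128 Trav and 19 of 35 Trbv. The mice were C57BL/6, 7 to 10 weeks old per the labels, and all 9 had received 500000 B16-OVA cells, a melanoma line that makes chicken ovalbumin, into the peritoneal cavity. On day 6 the IP group (libraries IP 2, IP 3 and IP 4) was given OT-I T cells electroporated with IL-12 mRNA into the peritoneal cavity, the IV group (IV 1, IV 2 and IV 4) was given the same kind of cells into a vein, and the PBS group (PBS 1, PBS 2 and PBS 3) was given saline by a route that the labels do not state. Omenta were taken 18 h later, 1 library per mouse. T cells without the IL-12 mRNA were given to no group, and each library holds RNA of transferred and resident cells together.

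A T cell receptor chain is built when a developing T cell joins a variable segment to a joining segment, with a diversity segment between them in the beta chain, and splices the result to a constant region (Trac for alpha, Trbc1 or Trbc2 for beta). Each T cell clone therefore carries transcripts of few variable segments, and a mixed population carries many. OT-I mice carry an already rearranged receptor transgene that recognises an ovalbumin peptide on MHC class I. Its beta chain uses Trbv12-1 and its alpha chain a segment of the Trav14 family, so these segments are described first.

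Total counts ran from 25409924 to 32292732 after IP delivery, from 7379798 to 41146527 after IV delivery and from 25993996 to 44626843 after saline. The members took 3648 counts in all, of which 2804 fell on Trbv and 844 on Trav, so that most values below rest on few counts. IV 4 stood apart from its group: across the 17123 genes tested, which are not independent replicates, its log2 level correlated at r = 0.985 with PBS 3, against 0.961 with IV 1 and 0.968 with IV 2. In raw counts IV 4 also held the most variable segment counts of any library, 291 of Trav and 972 of Trbv. Scaled to library size, Trav and Trbv stood at 6.64 and 22.2 in IV 4 and 5.87 and 19.7 in IV 2. They stood at 2.55 and 5.09 in IV 1. By this measure IV 4 lay near IV 2, and IV 1 was the library of the group that differed most. IV 2 had the smallest total, 7379798 counts, so its scaled values rest on few counts. T cell markers were present in every library (summed level of 6 genes, in counts scaled to library size, CPM: 126 to 140 in IP, 69.4 to 198 in IV, 25.7 to 57.3 in PBS), as were melanoma, adipocyte and mesothelial markers. Pancreatic acinar markers summed to 136 to 12940 CPM after IP delivery, 9.22 to 16131 after IV delivery and 13.0 to 19.4 after saline, and their part in the results was not tested.

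Trbv12-1 transcripts were abundant in all 3 omenta that received OT-I cells into the peritoneal cavity and lower in every other omentum. The segment lies on chromosome 6, as does Trbv12-2, a close relative in sequence. The last 300 bases of both coding sequences (bases 73 to 372; GENCODE M21 on GRCm38) are shown because the finding depends on reads being told apart between them. They differ at 44 of all 372 bases (88.2% identity), and capitals mark the 32 in this stretch.
Trbv12-1: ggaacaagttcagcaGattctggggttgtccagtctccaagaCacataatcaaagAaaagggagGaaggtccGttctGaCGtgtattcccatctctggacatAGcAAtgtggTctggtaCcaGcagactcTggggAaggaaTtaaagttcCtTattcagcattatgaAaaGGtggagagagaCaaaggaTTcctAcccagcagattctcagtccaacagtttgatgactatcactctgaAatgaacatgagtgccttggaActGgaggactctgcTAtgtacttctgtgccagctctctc
Trbv12-2: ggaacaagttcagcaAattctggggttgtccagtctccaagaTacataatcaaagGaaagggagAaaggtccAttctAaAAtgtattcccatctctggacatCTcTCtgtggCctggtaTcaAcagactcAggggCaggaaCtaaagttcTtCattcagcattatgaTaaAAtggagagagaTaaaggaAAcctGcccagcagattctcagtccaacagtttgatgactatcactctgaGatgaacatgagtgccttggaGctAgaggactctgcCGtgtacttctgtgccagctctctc
All 339 windows of 51 bases in the Trbv12-1 transcript, the length of 1 read, occurred in no other annotated transcript, and the same held for 332 of 335 windows of Trbv12-2. The differing bases are spread over the stretch, and no window of Trbv12-1 is shared.

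Trbv12-1 had 276, 198 and 184 counts in IP 2, IP 3 and IP 4, then 10, 9 and 113 in IV 1, IV 2 and IV 4, and 2, 10 and 14 in PBS 1, PBS 2 and PBS 3. In CPM this was 9.09, 8.38 and 6.20 in IP, 0.364, 1.20 and 2.58 in IV, and 0.0546, 0.384 and 0.285 in PBS. All IP libraries lay above all others, IV 2 and IV 4 lay above PBS, and IV 1 lay just below PBS 2. Mean CPM was 7.89 ± 1.51 after IP delivery, 1.38 ± 1.12 after IV delivery and 0.241 ± 0.169 after saline (SD, n = 3 each). In edgeR's quasi-likelihood test with Benjamini-Hochberg adjustment over all genes, Trbv12-1 rose in IP against PBS by a log2 fold change of 5.05 ± 0.71 (SE; adjusted p = 0.000358). It rose in IV against PBS by 2.60 ± 0.70 (edgeR adjusted p = 0.0315), and was higher in IP than in IV by 2.45 ± 0.61 (edgeR adjusted p = 0.0288). Leaving out 1 library at a time kept the rise in IP against PBS past the threshold in 9 of 9 runs, but the rise in IV against PBS was lost in 7 of 9 and the difference between IP and IV in 4 of 9. Without IV 4 the edgeR log2 fold change in IV against PBS was 1.41 (adjusted p = 0.165), and the difference between IP and IV was 3.63 (adjusted p = 0.00564). Without IP 2 that difference was 2.35 (edgeR adjusted p = 0.110). In bulk tissue, fewer cells of a type and less RNA per cell cannot be told apart.

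Within the beta chain, Trbv12-1 made up most of the counts in IP. Its share of Trbv counts was 83.9% in IP 2 (exact Clopper-Pearson 95% interval 79.5% to 87.7%), 80.2% in IP 3 (74.6% to 84.9%) and 66.7% in IP 4 (60.8% to 72.2%). It was 7.14% in IV 1 (3.48% to 12.7%), 6.08% in IV 2 (2.82% to 11.2%) and 11.6% in IV 4 (9.68% to 13.8%). In saline-treated mice it was 1.83% in PBS 1 (0.223% to 6.47%), 6.37% in PBS 2 (3.10% to 11.4%) and 3.29% in PBS 3 (1.81% to 5.45%). The intervals cover counting error only, since the reads carry no molecular identifiers. IP did not overlap the other groups, whereas IV 2 lay below PBS 2. The mean share was 76.9 ± 9.06% in IP, 8.28 ± 2.94% in IV and 3.83 ± 2.32% in PBS (SD, n = 3 each). Exact two-sided permutation tests of the mean share gave p = 0.1 for IP against PBS and p = 0.1 for IP against IV, the smallest value that 3 against 3 allows, and p = 0.2 for IV against PBS. With all 6 mice given OT-I cells set against the 3 given PBS, the means were 42.6 ± 38.1% and 3.83 ± 2.32% (exact permutation p = 0.0476; adjusted over the 8 share tests p = 0.267), and leaving out 1 library gave p over 0.05 in 8 of 9 cases. The SD of the 6 mice reflects the gap between the routes.

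**Figure D1:**
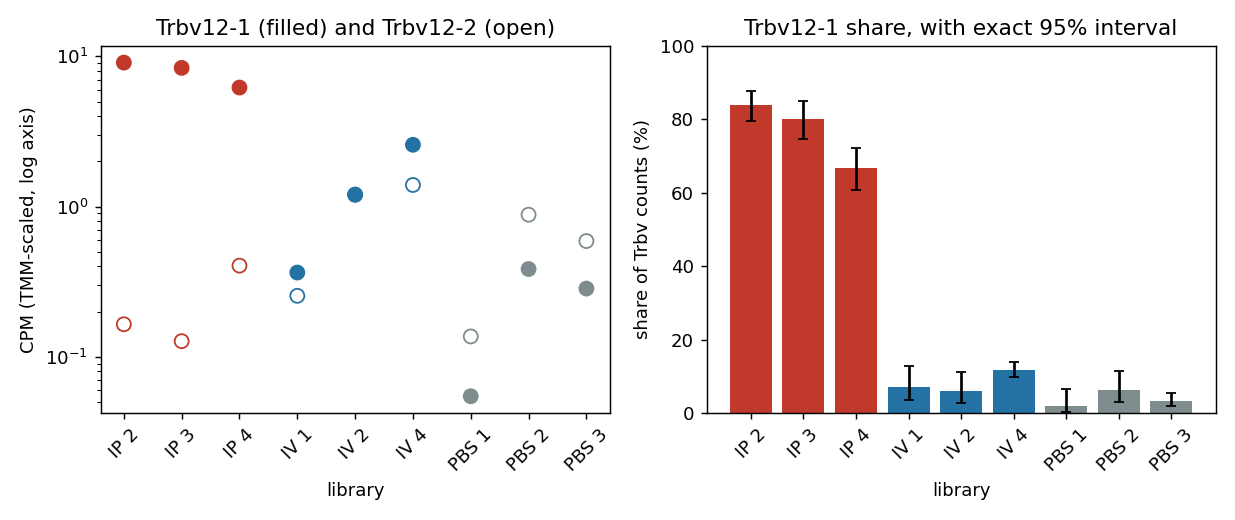
The left panel plots the TMM-scaled CPM of Trbv12-1 (filled) and Trbv12-2 (open) in each library on a log axis, and the right panel gives the share of Trbv counts on Trbv12-1, with bars at the share and lines at the exact 95% interval. Trbv12-1 lies between 6.20 and 9.09 CPM in the IP libraries and at or below 2.58 CPM in the others, while Trbv12-2 has no such gap.

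Trbv12-2, the nearest relative, had 5, 3 and 12 counts in IP, 7, 9 and 61 in IV, and 5, 23 and 29 in PBS, in the library order above. The groups overlapped in CPM, and no comparison passed the test. Its log2 fold changes were -1.15 ± 0.81 for IP against PBS (edgeR adjusted p = 0.311), 0.81 ± 0.75 for IV against PBS (0.502) and -1.97 ± 0.81 for IP against IV (0.157). Of the counts on the pair, Trbv12-1 held 98.2%, 98.5% and 93.9% in IP, 58.8%, 50% and 64.9% in IV, and 28.6%, 30.3% and 32.6% in PBS. The 3 groups did not overlap in this ratio, but the exact intervals of IV 1 (32.9% to 81.6%) and PBS 1 (3.67% to 71.0%) rest on 17 and 7 counts. The shares are formed between 2 genes within the same library and so do not depend on the scaling of libraries.

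Among the other beta segments, 3 fell in IP against PBS and none rose by the test. Of the 13 members that passed the filter on low counts, 12 were Trbv and 1 was Trav4-4-dv10. The filter asks for a minimum level in at least 3 libraries, so a segment high in 1 group could pass on that group alone, and the counts below describe these 13 and not all members. In IP against PBS 1 of them was higher (Trbv12-1) and 3 were lower, with 9 not past the test, against 18.7% of all tested genes higher and 14.2% lower. Their median log2 fold change was -1.15, against 0.02 over all genes. The 3 that fell were Trbv13-1, Trbv15 and Trbv29. Over all 48 members, the CPM of every IP library exceeded every PBS library in 3 and lay below in 6, against 24.1% and 20.3% of the 23054 genes with a summed count of 10 or more. Groups of 2 libraries overlap less readily, and the 6 became 15 without PBS 1. The share over all genes was not computed for such a split, so the 15 is not a result about the members.

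Trbv13-1, a segment of the family that invariant NKT cells often use in their beta chain, had 2, 3 and 1 counts in IP, against 6, 9 and 43 in PBS. It fell by 2.63 ± 0.87 on the log2 scale (edgeR adjusted p = 0.0388), and the CPM of the groups did not overlap. Trbv15 had 1, 0 and 5 counts in IP, against 10, 12 and 21 in PBS, and fell by 2.38 ± 0.82 (edgeR adjusted p = 0.0465). Every IP library lay below every PBS library. Trbv29, which RefSeq lists as a pseudogene, had 2, 2 and 3 counts in IP, against 5, 17 and 23 in PBS, and fell by 2.25 ± 0.76 (edgeR adjusted p = 0.0425). These calls rest on single-digit counts in IP. Each was lost when some single libraries were left out: adjusted p reached 0.197 for Trbv13-1 without PBS 3, 0.167 for Trbv15 without IP 2 and 0.136 for Trbv29 without IP 2. When only the IP and PBS libraries were fitted, Trbv12-1 alone was called.

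**Figure D2:**
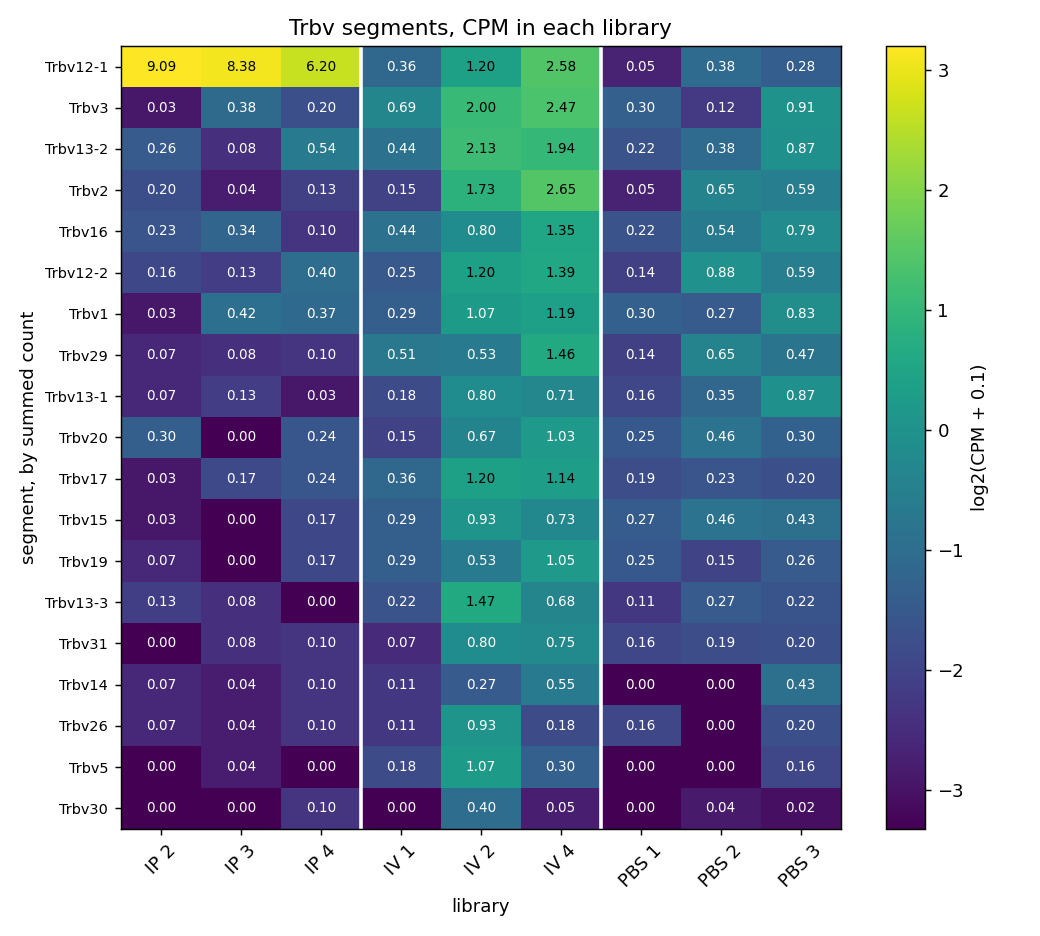
Heat map of the 19 Trbv members, ordered by summed count from top to bottom, in the 9 libraries; numbers are TMM-scaled CPM and colours log2(CPM + 0.1). Trbv12-1 is the brightest entry in each IP library, where no other segment exceeds 0.539 CPM, and IV 2 and IV 4 are brighter than the PBS libraries over most segments.

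In IV, most segments had a higher mean CPM than in PBS, but few passed the test. In IV against PBS 1 tested member was higher (Trbv12-1) and 0 were lower, against 10.4% and 5.66% of all tested genes. At an unadjusted p under 0.05 edgeR had 3 higher and 0 lower, and DESeq2 called 2 higher and 0 lower. The share over all genes is not given for either, so these counts are not results about the members. The members' median log2 fold change was 0.90, against 0.04 over all genes. Nearest to the threshold was Trbv17 with 10, 9 and 50 counts in IV, against 7, 6 and 10 in PBS, a log2 fold change of 2.05 ± 0.64 (edgeR adjusted p = 0.0510). Its CPM did not overlap between IV and PBS, at 0.364 to 1.20 in IV and at most 0.236 in any PBS or IP library. Trbv17 could thus pass the filter on low counts through IV alone, so its values are given as description only. Among all 48 members, the CPM of every IV library exceeded every PBS library in 6 and lay below in 0, against 14.4% and 11.1% of such genes. The 6 became 29 without IV 1 and 11 without PBS 3, with 0 and 1 below. For groups of 2 libraries, which overlap less readily, the share over all genes was not computed. The 29 and the 11 are therefore not results about the members. The mean CPM of the 47 members other than Trbv12-1 was higher in IV than in PBS for 44, and for 39 without IV 4. Of all tested genes 53.7% had a positive log2 fold change in IV against PBS. No share of higher means was computed over the genes with a summed count of 10 or more. A member could also reach 10 summed counts through IV alone, so the 44 and the 39 are description only. B cell markers moved with these segments: all 4 were higher in IV than in PBS, with a summed level of 103 to 387 CPM in IV and 42.7 to 52.6 CPM in PBS. The part of the B cell or lymphoid content of each omentum in the result was not tested.

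Between the routes, Trbv12-1 was higher in IP and 4 tested beta segments were lower, with 8 of the 13 not past the test, against 5.93% of all tested genes higher and 4.47% lower. The members' median log2 fold change was -2.25, against -0.02 over all genes. Trbv3 had 1, 9 and 6 counts in IP, with 19, 15 and 108 in IV (log2 fold change -3.08 ± 0.87, edgeR adjusted p = 0.0475). Trbv29 had 2, 2 and 3 counts in IP, with 14, 4 and 64 in IV (-3.34 ± 0.74, edgeR adjusted p = 0.0174). Trbv17 had 1, 4 and 7 counts in IP, with 10, 9 and 50 in IV (-2.56 ± 0.68, edgeR adjusted p = 0.0384). This call gives no support of its own, since Trbv17 could pass the filter on low counts through IV alone.

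Trbv15, at 1, 0 and 5 counts in IP, with 8, 7 and 32 in IV, had a log2 fold change of -3.05 ± 0.83 (edgeR adjusted p = 0.0416). In each of the 4, every IP library lay below every IV library in CPM. Trbv2 had the largest fold change of the 13, with 6, 1 and 4 counts in IP, with 4, 13 and 116 in IV, whose groups overlapped in CPM and which was not called (-3.51 ± 1.08, edgeR adjusted p = 0.0642). Without IV 4, edgeR called 0 segments lower in IP than in IV, with adjusted p of 0.0556 to 0.0967 for the 4, and Trbv12-1 alone was called higher. Over all 48 members, 1 did not overlap and was higher in IP and 15 did not overlap and were lower, against 14.4% and 12.1% of such genes. Both counts were the same without IV 4, and the 15 became 30 without IV 1. As no share over all genes was computed for groups of 2 libraries, the 30 is not a result about the members. Leaving out 1 library at a time, edgeR lost the call of Trbv29 in 4 of 9 runs, of Trbv3 in 6, of Trbv15 in 7 and of Trbv17 in 8. B cell markers moved with the segments here too: all 4 were lower in IP than in IV, with a summed level of 27.5 to 50.9 CPM in IP and 103 to 387 CPM in IV, and a median log2 fold change of -2.35. In IP against PBS none of the 4 passed the test, with a median log2 fold change of -0.25. Their summed level in PBS was 42.7 to 52.6 CPM. The part of the B cell markers in these results was not tested.

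Summed by family, Trbv12-1 was joined with Trbv12-2 and a further entry of the Trbv12 family, and 2 of its 3 calls were lost. The Trbv12 family was higher in IP than in PBS (log2 fold change 3.41, edgeR adjusted p = 0.00296), with 1.63 in IV against PBS (0.123) and 1.77 in IP against IV (0.104). In IP against PBS, Trbv15 and Trbv29, families with 1 entry each, were lower, so that 1 of 13 families tested was higher and 2 lower, against 18.7% and 14.2% of all tested genes. In IV against PBS edgeR called 0 families, against 10.4% of all tested genes higher and 5.66% lower, with 4 at an unadjusted p under 0.05, all higher, and DESeq2 called 1. Against 5.92% of all tested genes higher and 4.47% lower, in IP against IV edgeR called 5 families lower in IP and 0 higher, with 1 higher at an unadjusted p under 0.05, and DESeq2 called 1 higher. Those 5 were Trbv3, Trbv13, Trbv15, Trbv17 and Trbv29. For the counts at an unadjusted p and with DESeq2, the share over all genes is not given, so they are not results about the families. The Trbv13 family, with all 3 of its segments among the members, had 14, 7 and 17 counts in IP, 23, 33 and 146 in IV, and 18, 26 and 97 in PBS. Its log2 fold change was -2.61 between IP and IV (edgeR adjusted p = 0.0339) and -1.37 between IP and PBS (0.140), where Trbv13-1 alone was called.

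Leaving out Trbv12-1, the beta chain counts were 53, 49 and 92 in IP, 130, 139 and 859 in IV, and 107, 147 and 412 in PBS. In CPM this was 1.75, 2.07 and 3.10 in IP, 4.73, 18.5 and 19.6 in IV, and 2.92, 5.64 and 8.37 in PBS. The IP and PBS values overlapped only through IP 4 and PBS 1, and every IV library but IV 1 lay above PBS. The effective number of beta segments was taken as the inverse Simpson index of their counts, in its form for draws without replacement. It was 1.42, 1.55 and 2.21 in IP, 15.1, 17.1 and 13.6 in IV, and 15.6, 12.9 and 14.3 in PBS. Thinned to the 109 counts of the poorest library, the expected number of segments seen was 10.6, 11.1 and 14.7 in IP, 17.9, 18.9 and 17.5 in IV, and 16, 15.7 and 17.9 in PBS. Both measures were lowest in the IP libraries.

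With Trbv12-1 removed the groups lay closer: the effective number over the remaining 18 segments was 11.4, 9.41 and 12.2 in IP, 14, 16 and 12.9 in IV, and 15.1, 11.9 and 13.6 in PBS. IP 4 lay within the PBS range, and the other 2 IP libraries below it. Shares of a fixed total must fall when 1 segment takes most of it, and 12 of 19 Trbv shares (63.2%) were lower in every IP than in every PBS library, while 1 (5.26%), that of Trbv12-1, was higher. Once Trbv12-1 was taken out of the total, 1 of 18 (5.56%) was lower, Trbv29, and 0 were higher. Against IV, 16 of 19 shares (84.2%) were lower in IP before and 0 of 18 after its removal. Between IV and PBS, 1 of 19 shares (5.26%) was lower in every IV library, that of Trbv13-1, and also 1 of 18 after removal: it held 3.85%, 4.32% and 3.61% of the other Trbv counts in IV, and 5.61%, 6.12% and 10.4% in PBS. Totals of 49 to 147 counts in 7 of the 9 libraries keep these shares coarse, with 1 count worth up to 2.04%.

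**Figure D3:**
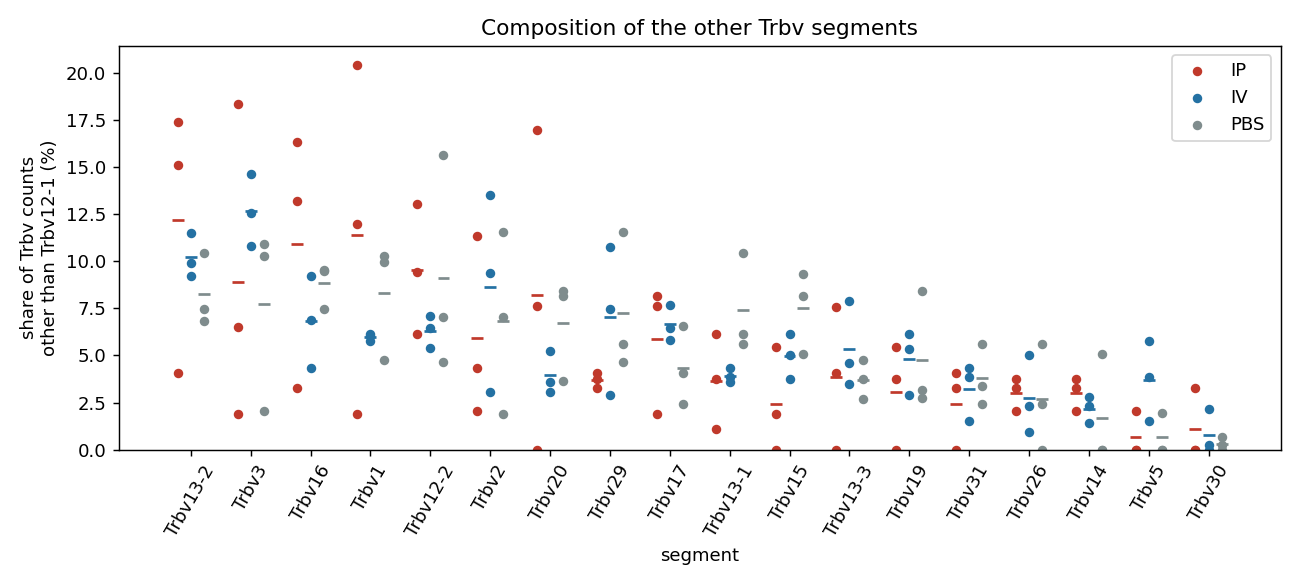
Share of each of the 18 other Trbv segments in the Trbv counts left after Trbv12-1 was removed, in percent, with a point for each library and a short line at the group mean for IP, IV and PBS. The groups overlap in most segments, with Trbv29 lower in every IP than in every PBS library and Trbv13-1 lower in every IV than in every PBS library.

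Set against the constant regions, which every receptor transcript of the chain carries, the other variable segments were sparse in IP. Mean CPM of Trbc1 was 20.7 ± 1.17 after IP delivery, 19.3 ± 9.91 after IV delivery and 6.30 ± 3.04 after saline (SD, n = 3 each). Trbc2 had a mean CPM of 35.2 ± 6.18 after IP delivery, 29.7 ± 13.5 after IV delivery and 8.07 ± 2.52 after saline. Both rose in IP against PBS, by 1.71 (edgeR adjusted p = 0.00953) and 2.12 (0.000794), and in IV against PBS, by 1.59 (0.0293) and 1.86 (0.00612). Trac rose in IV (1.45, edgeR adjusted p = 0.0264) and did not pass the test in IP (0.94, 0.0771).

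For each 100 Trbc1 and Trbc2 counts, Trbv12-1 had 14.1, 16.3 and 11.9 counts in IP, 1.33, 1.63 and 5.61 in IV, and 0.687, 2.19 and 1.61 in PBS. The other Trbv members had 2.72, 4.04 and 5.97 in IP, 17.3, 25.1 and 42.7 in IV, and 36.8, 32.2 and 47.4 in PBS. Neither ratio overlapped between IP and the other groups. Trav members had 7.54, 8.65 and 6.28 counts for each 100 Trac counts in IP, 13.9, 14.5 and 16.9 in IV, and 41.1, 16.9 and 18.2 in PBS, and here too every IP library lay below the rest. The ratios are of raw counts over transcripts of different length, so only their differences between libraries can be read, and no test was made on them.

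**Figure D4:**
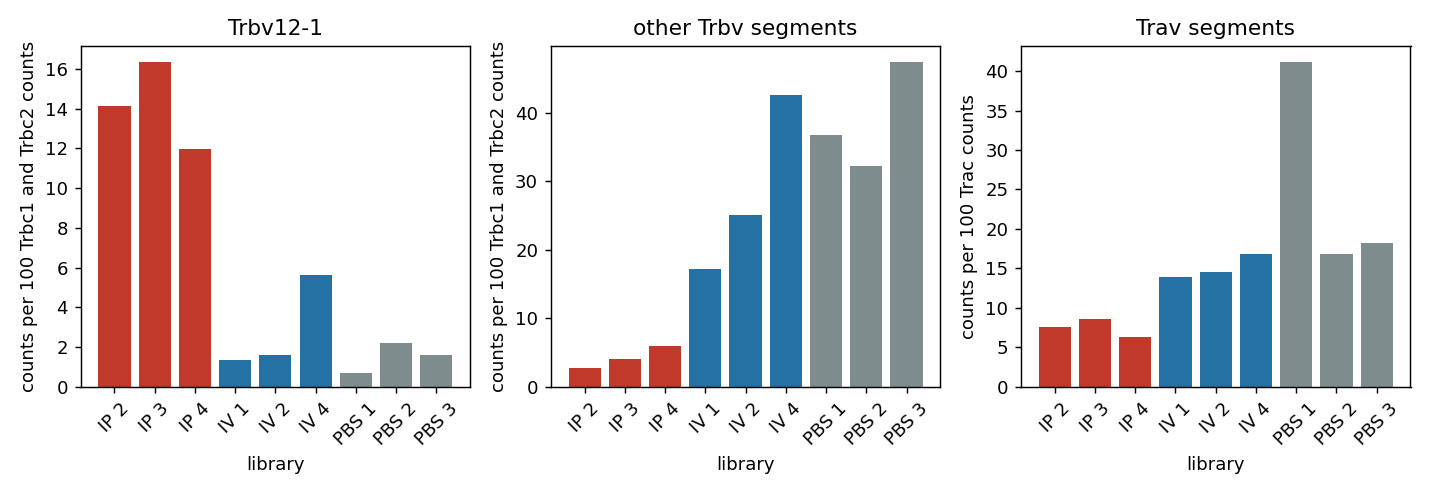
Bars give, for each library, the counts of Trbv12-1 (left) and of the other Trbv members (middle) for each 100 counts of Trbc1 and Trbc2, and of the Trav members for each 100 counts of Trac (right). IP libraries are highest in the left panel (11.9 to 16.3) and lowest in the other panels.

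On the alpha side, no change of the Trav14 family passed the test. The Trav14 family lies on chromosome 14, where several copies of a large block of segments gave rise to names with d and n. Of 9 Trav14 entries 5 were members. The pair Trav14-1, a member with 95.7% unique windows of 51 bases, and Trav14d-1, with no counts, is shown as an example of the copies. They differ at 16 of 364 coding bases (95.6% identity), and of the last 300 bases (65 to 364; GENCODE M21 on GRCm38) capitals mark the 13 that differ.
Trav14-1: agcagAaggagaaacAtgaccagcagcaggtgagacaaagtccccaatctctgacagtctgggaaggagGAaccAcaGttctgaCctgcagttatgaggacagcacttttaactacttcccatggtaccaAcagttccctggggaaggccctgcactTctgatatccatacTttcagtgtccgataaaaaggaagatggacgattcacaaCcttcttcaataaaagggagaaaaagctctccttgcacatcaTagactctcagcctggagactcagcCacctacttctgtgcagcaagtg
Trav14d-1: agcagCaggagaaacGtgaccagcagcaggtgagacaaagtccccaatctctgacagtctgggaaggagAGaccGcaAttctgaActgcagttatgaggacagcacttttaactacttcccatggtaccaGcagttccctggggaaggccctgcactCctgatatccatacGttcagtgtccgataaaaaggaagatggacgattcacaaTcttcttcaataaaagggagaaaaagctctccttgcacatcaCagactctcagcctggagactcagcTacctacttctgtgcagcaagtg
Trav14d-1 is identical to Trav14n-1, and Trav14d-2 to Trav14n-2, over the whole coding sequence. These 4 entries hold 0 windows of 51 bases that occur nowhere else, and all 4 were listed at 0 counts, whereas between 43.7% and 95.7% of windows were unique in the 5 members. A count of 0 for such an entry therefore does not show that its transcript was absent, since reads that fit several copies may have been left out in counting.

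Together the Trav14 entries had 7, 9 and 5 counts in IP, 15, 9 and 50 in IV, and 10, 12 and 33 in PBS. Their share of Trav counts was 13.2%, 20.9% and 11.1% in IP, 21.4%, 20.5% and 17.2% in IV, and 11.4%, 22.2% and 21.2% in PBS, with overlap between all groups. The means were 15.1 ± 5.17% in IP, 19.7 ± 2.22% in IV and 18.2 ± 5.98% in PBS (SD, n = 3 each). Exact permutation tests gave p = 0.5 for IP against PBS, 0.9 for IV against PBS, 0.3 for IP against IV and 0.762 for all 6 treated mice against PBS. The exact interval of a single library was wide, such as 5.48% to 25.3% in IP 2, so that a small difference was not detectable at this depth. As a family, Trav14 had edgeR log2 fold changes of -0.88 for IP against PBS (adjusted p = 0.250), 0.98 for IV against PBS (0.216) and -1.86 for IP against IV (0.0557).

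The counts of the single copies were low. Trav14-3 had 0 counts in all 3 IP libraries, 4, 2 and 16 in IV, and 0, 0 and 2 in PBS, so that IV lay above both other groups. Trav14d-3-dv8, a segment that can join to alpha or delta chain segments, had 3, 4 and 0 counts in IP, 0, 1 and 4 in IV, and 0, 5 and 15 in PBS. Trav14n-3 had 2 counts in each IP library, 3, 4 and 16 in IV, and 3, 2 and 9 in PBS. Trav14-2 had 2, 3 and 1 counts in IP, 7, 0 and 8 in IV, and 3, 3 and 5 in PBS, and Trav14-1 had 0, 0 and 2 in IP, 1, 2 and 6 in IV, and 4, 2 and 2 in PBS. None of the 5 passed the filter on low counts, so none was tested in the fit above. In a fit of all genes with a summed count of 10 or more, none of the 5 passed the threshold either. The smallest edgeR adjusted p was 0.0578 for Trav14-3 in IP against IV. Trav14-3 could reach 10 summed counts through IV alone, so this p gives no support of its own and its counts are description only.

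Trav4-4-dv10, which can also join to delta segments, was the most counted alpha segment and held 25.0% of Trav member counts. It had 16, 11 and 17 counts in IP, 21, 3 and 31 in IV, and 57, 22 and 33 in PBS. As a share of Trav counts this was 30.2%, 25.6% and 37.8% in IP, 30.0%, 6.82% and 10.7% in IV, and 64.8% in PBS 1, 40.7% in PBS 2 and 21.2% in PBS 3. In CPM all IP libraries (0.466 to 0.573) lay below all PBS libraries (0.671 to 1.56), but the test was not passed (log2 fold change -0.96 ± 0.43, edgeR adjusted p = 0.110). The log2 fold change was -0.63 ± 0.43 for IV against PBS (edgeR adjusted p = 0.353) and -0.33 ± 0.44 for IP against IV (0.700). Only 47.6% of its windows are unique, so its counts are uncertain.

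The other alpha segments did not pass the filter on low counts either. In the fit of all genes with a summed count of 10 or more, edgeR called 0 of the 29 Trav members in IP against PBS, where 11.8% of those genes were higher and 11.1% lower. It called 0 in IV against PBS, where 5.59% were higher and 4.13% lower, and 1 lower in IP than in IV, Trav16n, where 3.5% were higher and 2.85% lower. At an unadjusted p under 0.05 edgeR had 2, 3 and 7 Trav members in these comparisons, and no other tool was run on this set of genes. The share over all genes at that p is not given here, so these numbers are not results about the members. Trav17 had 5, 4 and 2 counts in IP, 0, 4 and 5 in IV, and 1, 0 and 1 in PBS, and its share was higher in every IP than in every PBS library. Trav12-2 was at 0 in all 3 IP libraries, with 0, 1 and 18 counts in IV and 4, 1 and 4 in PBS. Trav16n had 0, 1 and 1 counts in IP, 5, 6 and 27 in IV, and 1, 5 and 5 in PBS, and was lower in every IP than in every IV library (log2 fold change -4.18 ± 1.06 in that fit, edgeR adjusted p = 0.0379). Trav19 had 1 count in each IP library, 2, 4 and 8 in IV, and 0, 0 and 1 in PBS.

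Single libraries made up much of some segments: Trav6n-6 had 8 of its counts in IP 2, Trav16 25 in IV 4, and Trav3-3 14 in IV 4 and 11 in PBS 3. Of the 29 shares, 2 were higher (6.9%) and 1 lower (3.45%) in every IP than in every PBS library, 2 were higher (6.9%) and 0 lower in IV than in PBS, and 0 were higher and 3 lower (10.3%) in IP than in IV. Segment by segment, 27 of the 29 Trav members were at 0 in at least 1 library.

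**Figure D5:**
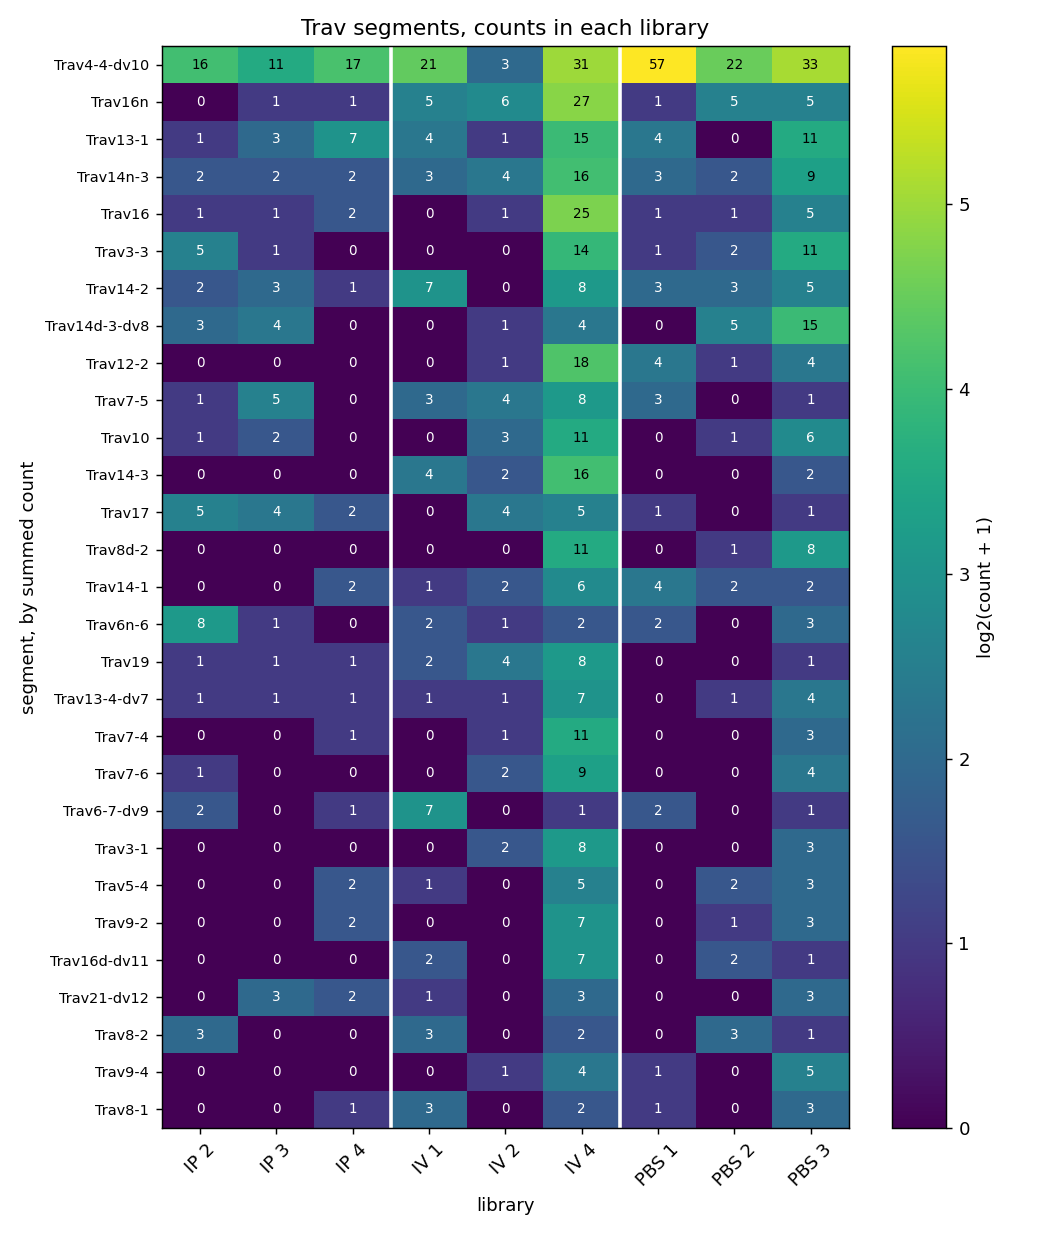
Heat map of the 29 Trav members, ordered by summed count from top to bottom, in the 9 libraries; numbers are raw counts and colours log2(count + 1). Trav4-4-dv10 leads in PBS 1 with 57 counts, and IV 4 and PBS 3 hold a count in all 29 segments.

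The alpha segments known from invariant NKT and MAIT cells had few counts, unlike the Trbv13 family described above, which had 381. Trav11, the alpha segment of invariant NKT cells, and its copy Trav11d were listed at 0 in all libraries, but neither has a window of 51 bases of its own, so the 0 does not show absence. Trav11n, with 79.5% unique windows, had 1 count in IP 2 and 1 in IV 4. Trav1, used by MAIT cells, had 9 counts in all, 2 and 3 in IV 2 and IV 4 and 4 in PBS 3, which put it just outside the rule, as were Trbv4 and Trav10n with 9 and Trav6-3 with 8. Just inside were Trav8-1 and Trbv30 with 10 counts and Trav9-4 with 11. Trdc, the constant region of the delta chain, had a mean CPM of 3.92 ± 0.568 after IP delivery, 6.05 ± 2.73 after IV delivery and 2.72 ± 1.02 after saline (SD, n = 3 each) and was called in no comparison.

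The entries below the rule were of unequal kinds. In all, 72 of the 163 had no count and 43 had 1 to 9. Of the 60 Trav entries without a count, 42 have no window of 51 bases of their own, whereas this holds for 1 of the 12 Trbv entries without a count. Trav members had a median of 55.5% unique windows, with 3 of 29 fully unique, and Trbv members a median of 100%, with 17 of 19. Trbv5 was the exception among beta members at 22.6%, as it overlaps another annotated gene on the same strand. The lower counts on the alpha side thus go with many near-identical copies, and the part of this in the Trav values was not tested.

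The other receptor loci were counted as well. The 14 Trbj joining segments had 79, 66 and 105 counts in IP, 27, 18 and 174 in IV, and 26, 24 and 136 in PBS. The 60 Traj segments had 12, 8 and 16 in IP, 8, 11 and 27 in IV, and 6, 5 and 19 in PBS. The single Trgv entry had 3, 6 and 8 counts in IP, 11, 6 and 34 in IV, and 14, 9 and 6 in PBS, and the 6 Trdv entries 8, 7 and 9 in IP, 4, 5 and 30 in IV, and 9, 12 and 31 in PBS. In raw counts IV 4 was the highest or, for Trdv, next to PBS 3 in each of them. These counts are not scaled to library totals, which ran from 7379798 in IV 2 to 44626843 in PBS 3. The order is therefore not one of level.

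Most genes of the receptor complex and its signalling were higher in IP than in PBS and in IV than in PBS. Of 7 CD3 and coreceptor genes 6 were higher in IP than in PBS, against 18.7% of all tested genes, and 5 in IV than in PBS, against 10.4%, and the rest did not pass the test. Cd3e, a signalling chain of the complex, had a mean CPM of 23.2 ± 1.59 after IP delivery, 19.6 ± 8.33 after IV delivery and 5.85 ± 3.24 after saline (SD, n = 3 each), with log2 fold changes of 1.98 in IP (edgeR adjusted p = 0.00322) and 1.73 in IV (0.0169). Cd8a, the coreceptor of MHC class I-restricted cells such as OT-I, had a mean CPM of 55.1 ± 3.03 after IP delivery, 21.8 ± 11.9 after IV delivery and 8.62 ± 5.30 after saline, and rose by 2.67 in IP (edgeR adjusted p = 0.00557), with 1.33 in IV (0.131). Cd8b1, its partner chain, rose by 2.17 in IP (edgeR adjusted p = 0.00428) and 1.60 in IV (0.0374).

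Cd4, the coreceptor of helper cells, had a mean CPM of 4.46 ± 0.731 after IP delivery, 18.5 ± 10.0 after IV delivery and 8.49 ± 2.39 after saline. It was lower in IP than in IV by a log2 fold change of -2.04 (edgeR adjusted p = 0.0121), and neither route passed the test against PBS (-0.93 in IP, 0.109, and 1.11 in IV, 0.0865). Of 12 proximal signalling genes 11 were higher in IP and 7 in IV than in PBS, against 18.7% and 10.4% of all tested genes. Among them was Lck, the kinase that phosphorylates the CD3 chains (1.62 in IP, edgeR adjusted p = 0.00433, and 1.57 in IV, 0.0136). Of 10 genes that receptor stimulation is known to induce, 6 were higher and 2 lower in IP than in PBS, against 18.7% and 14.2% of all tested genes. In a list of 10, the 2 lower are not far from that share. In IV 4 were higher than in PBS, against 10.4% of all tested genes. The 2 that fell were the nuclear receptor genes Nr4a1 (log2 fold change -1.04, edgeR adjusted p = 0.00217), named after its value was seen, and Nr4a3 (-1.28, 0.000390).

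Il2ra, a chain of the interleukin-2 receptor, had a mean CPM of 96.9 ± 12.3 after IP delivery, 13.6 ± 5.39 after IV delivery and 3.69 ± 2.95 after saline (SD, n = 3 each). Tnfrsf9, a costimulatory receptor, had a mean CPM of 104 ± 13.4 after IP delivery, 11.7 ± 1.19 after IV delivery and 4.46 ± 2.46 after saline. Both were higher in IP than in IV, by 2.83 (edgeR adjusted p = 0.0102) and 3.16 (0.000824). Of the same 10 genes, 4 were higher in IP than in IV and 1, Nr4a3, was lower (-0.78, edgeR adjusted p = 0.0207), against 5.93% and 4.47% of all tested genes. The recombination genes Rag1, Rag2 and Dntt did not pass the filter: Rag1 was at 0 in all IP and PBS libraries, and the summed level of the 3 in CPM was 0.198 to 0.296 after IP delivery, 0.182 to 2.67 after IV delivery and 0.273 to 0.499 after saline.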

How the data were processed

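Members, gene lists and tests were chosen with earlier results of these data known. Per the labels' protocols, polyadenylated RNA went into strand-marking libraries that were read as pairs of 51 bases. The submitters' processing notes list mm39, STAR 2.7.9, limma and featureCounts. Not given in the sources used here are strand use in counting and the treatment of reads fitting several copies. The authors deposited raw counts for 55359 genes, used as deposited, and log2 CPM for 18833 genes, which holds 20 of the 48 members and was used as an alternative. Of the identifiers 52083 matched a symbol in GENCODE M21 (GRCm38). As that build differs from mm39, no coordinates are printed, and sequences and unique windows describe its transcripts.

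Counts of all 9 libraries entered 1 robust quasi-likelihood fit in edgeR 4.0.16 (R 4.3.3, TMM scaling, filterByExpr, 17123 genes), with Benjamini-Hochberg adjustment over all genes and a threshold of 0.05. Fold changes are log2, first group minus second, with an approximate SE (the fold change over the square root of F), and CPM are TMM-scaled. Shares were computed over members of a chain and compared by exact two-sided permutation tests in SciPy 1.17.1, 8 in all. Named are the OT-I, NKT and MAIT segments, those past the threshold, the 8 most counted of each chain, the 3 largest rises and falls of share, and entries with 8 to 11 counts. Of these, a few that moved by 1 or 2 counts are shown only in the plots. The list of naive and recirculating T cell genes is not reported here. Alternatives were limma 3.58.1 (voom, and on the deposited log2 CPM), DESeq2 1.42.0, another filter or none, fits without the third group, a block on mouse number, and each library left out. Leaving out libraries in the counts of members that do not overlap was chosen after seeing the data. The labels give each library its own mouse, with numbers not stated to pair mice across groups.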

Additional observations from a re-analysis of the deposited data

Results flagged for a closer look

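Of the 13 segments tested, 5 had an effect that differed between the routes, with 1 higher in IP than in IV and 4 lower. Of all tested genes 5.93% were higher and 4.47% lower. The contrast of IP with IV equals the difference between their effects against PBS (edgeR quasi-likelihood test, adjusted over all genes). The difference was 2.45 for Trbv12-1, with a log2 fold change against PBS of 5.05 in IP and 2.60 in IV. It was -3.08 for Trbv3 (-1.22 in IP and 1.87 in IV), -3.34 for Trbv29 (-2.25 and 1.10), -2.56 for Trbv17 (-0.51 and 2.05) and -3.05 for Trbv15 (-2.38 and 0.67). Both effects share the PBS libraries. Trbv17 could pass the filter on low counts through its level in IV alone, so its difference is description only. Without IV 4 the 4 negative differences were -2.62, -2.57, -2.22 and -2.83, none of them past the threshold, and that of Trbv12-1 was 3.63.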

How the results depend on the processing

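The rise of Trbv12-1 in IP against PBS passed the threshold under all 17 alternatives, with log2 fold changes of 4.57 to 5.38. Its rise in IV against PBS was lost in 7 of 9 runs that left out a library (1.41 to 3.11) and in 4 of 8 others: limma on the deposited log2 CPM (2.35), limma voom (2.58), no filter (2.57) and only the groups compared (2.58). Its difference between IP and IV was lost in 4 of 9 leave-outs (1.94 to 3.63) and without the filter (2.40). The share difference of all treated mice against PBS ranged from 30.5 to 46.1 percentage points over leave-outs, with p over 0.05 in 8 of 9. The Trav14 share difference of IV against PBS reversed to -0.0695 with all entries counted and ran from -2.0 to 3.43 over leave-outs, and that of all treated mice ran from -4.30 to 1.13. It could not be given for entries of 50 or more counts, since no Trav14 entry reaches that.

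Segments called in IP against PBS were 2 with limma voom, 1 with only the groups compared and 1 to 4 over leave-outs. In IV against PBS they were 2 with DESeq2 and with the replicate block, 0 with limma voom, limma on log2 CPM, no filter or only the groups compared, and 0 to 2 over leave-outs. In IP against IV they were 8 with DESeq2 and with limma on log2 CPM, 9 without a filter, 3 with limma voom and with only the groups compared, and 0 to 12 over leave-outs, the 12 being without IV 1. Families called were 5 in IP against PBS with the replicate block (1 to 3 over leave-outs), 1 with DESeq2 and 2 with the replicate block in IV against PBS (0 to 4), and 8 with DESeq2 in IP against IV (0 to 11). The share of all genes called under each of these settings is not given here, so the counts are not results about the members. The cause of the shifts was not tested. In their deviations from group means, same-numbered libraries correlated at -0.399 to 0.1004 over 6 pairs, others at -0.336 to 0.272. So few pairs, in groups of 3, cannot show whether the mouse numbers pair mice. The replicate block gave 4.57, 2.59 and 1.98 for the 3 log2 fold changes of Trbv12-1, all past the threshold. Limma on the deposited log2 CPM moved the median of all genes by -0.14 in IP against PBS. With a median summed count of 19 for Trav members and 106 for Trbv members, counts limit what can be told apart.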
